A study of Mus musculus with 6 samples.

Results

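The adhesion genes of peritoneal neutrophils were followed in 9 genes, *Itgam*, *Itgal*, *Itgax*, *Itgb2*, *Itga4*, *Selplg*, *Spn*, *Cd44* and *Icam1*, chosen by symbol from 38739 genes in the table. All 9 had values above 0 and were among the 23049 genes tested. Peritoneal neutrophils from cGAS knockout mice (strain C57B/L6 in the labels) were cultured for 2 h with a media control (untreated, 3 samples) or with *E. coli* LPS at 500 ng/mL (LPS, 3 samples). The study's methods give a lower LPS dose for the RNA sequencing and 500 ng/mL for other neutrophil experiments. The cells came from peritoneal lavage after thioglycolate in male mice, whose age the methods give and the labels do not. Both groups carry the cGAS deletion, so no value below compares the deletion with the wild type. The sources do not say whether the samples of a group came from separate mice or cultures, and p values measure only the spread between these samples.

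Leukocytes leave the blood in steps. Selectins of the vessel wall catch glycosylated ligands such as PSGL-1 (*Selplg*) and CD44, and the cell rolls until integrins switch to their active shape and hold it to ICAM-1 and related ligands. The β2 integrins are the main leukocyte integrins: 1 β chain, CD18 (*Itgb2*), pairs with CD11a (*Itgal*, together LFA-1), CD11b (*Itgam*, Mac-1) or CD11c (*Itgax*), and an α chain needs its β chain to reach the surface. Neutrophils are known for abundant Mac-1, part of it stored in granules, so that surface amounts can change without new RNA. Only RNA was measured here.

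The deposited values are named normalized counts. They behave as TPM (a share of transcripts corrected for their length), taken as the mean of a gene's transcripts and rescaled once in each sample. This was inferred from the values and the study's methods, and the values are called scaled TPM below. They were compared as log2(value + 1) with limma. Because the averaging depends on how many transcripts a gene has, values are compared between samples and not between genes. The number of reads behind a value is unknown, so no counting interval could be given. Summed values were 603599 to 713384 in the untreated and 404675 to 465904 in the LPS samples, of which protein-coding genes held 21.0% to 28.3% and 49.7% to 58.9%. *Cgas* itself lay between 0.0286 and 0.307 in all 6 samples. The neutrophil marker genes summed to 9581 to 28280 scaled TPM untreated and 15990 to 54500 with LPS. Most of this came from *S100a8* (2086 to 8405 and 5536 to 19851) and *S100a9* (5233 to 16151 and 8899 to 28393). Others ran down to *Mpo* (at most 0.138), with *Elane* listed at 0. Of the 11 neutrophil markers tested, 5 had a positive and 6 a negative log2 fold change. B cell markers summed to 281 to 1088 and 263 to 799, macrophage markers to 168 to 200 and 276 to 418, and red cell genes ranged from 21.5 to 5629 and from 165 to 4651. In bulk RNA, fewer cells of a type and less RNA per cell cannot be told apart.

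*Itgam*, *Itgax*, *Itgal* and *Spn* lie on chromosome 7, and *Itgax* starts 10.9 kb after the end of *Itgam*. Promoter sequence from RefSeq (build GRCm38.p6) was matched for 6 of the 9 genes, without *Itgal*, *Itgb2* and *Selplg*, and each was placed in GRCm39 by its single exact match. Stretches of 30 bases are shown for *Icam1*, which had the largest change of the 9, and for the α chains *Itgam* and *Itgax*, as examples of windows that held a motif of a factor type known from LPS signalling or from myeloid genes. Capitals mark the letters of the motif, and positions count back from the RefSeq start.
Icam1, NF-kB type, 153 to 145 bases before the start, chr9:20927073-20927102, plus strand: acttcagtttGGAAATTCCtagatcgcagg
Icam1, STAT type, 42 to 34 bases before the start, chr9:20927184-20927213, plus strand: ggcgcgaggtTTCCCGGAAagtggccccga
Itgax, AP-1 type, 56 to 50 bases before the start, chr7:127728655-127728684, plus strand: cccacctcctcTGAGTCAcgctgacaactt
Itgam, PU.1 type, 84 to 79 bases before the start, chr7:127661716-127661745, plus strand: tgttttctcccgGAGGAAggctacagaggg
Itgam, PU.1 type, 15 to 10 bases before the start, chr7:127661782-127661811, plus strand: gtctctcatagctttTTCCTCatacttctc
The letters searched on both strands in the 250 bases before the start were GGANNNTCC (NF-kB type), TTCNNNGAA (STAT type), TGANTCA (AP-1 type) and GAGGAA (PU.1 type). Of 32851 promoter windows of this length, 7.27% held the NF-kB type, 7.02% the STAT type, 6.75% the AP-1 type and 23.3% the PU.1 type. Among the 6 windows the NF-kB and STAT types were found in *Icam1* alone, the AP-1 type in *Itgax* alone and the PU.1 type in *Itgam* and *Cd44* (not shown). A match of letters describes the window and does not show that a factor binds. The *Icam1* window lies inside the GENCODE gene, after its first annotated start. The *Itgax* window (chr7:127728472-127728721) runs past the GENCODE start of *Itgax* at 127728668, which falls within the stretch shown. The *Itgam* window ends at 127661811, just past the GENCODE start of *Itgam* at 127661808.

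LPS changed the amount of 1 adhesion gene beyond both limits used. *Icam1* rose about 19.2-fold, and none of the 9 genes passed the test for a fall. Called genes are those past the limits of the study, with p under 0.01 before adjustment and a change beyond 2 on the log2 scale. *Icam1* was the only 1 of the 9 called higher, against 1.69% of all genes tested, and 0 were called lower, against 1.31%. It was also the only 1 with an adjusted p under 0.05 (Benjamini-Hochberg over all genes tested), where 0.894% of all genes were higher and 0.946% lower. At an unadjusted p under 0.05, limma gave 2 of the 9 higher, *Icam1* and *Itgal*, where 10.3% of all genes were, and 0 lower, where 6.66% were. The log2 fold change was positive in 7 genes and negative in *Itgam* and *Selplg*, with a median of 0.33, where the median of genes with a mean of at least 1 was 0.13. With samples rescaled to the same protein-coding sum, the medians were -0.12 and -0.22, and *Itgb2*, *Itga4* and *Cd44* turned negative. This rescaling also moved the share of higher genes among all called genes from 56.4% to 29.4%.

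**Figure D1:**
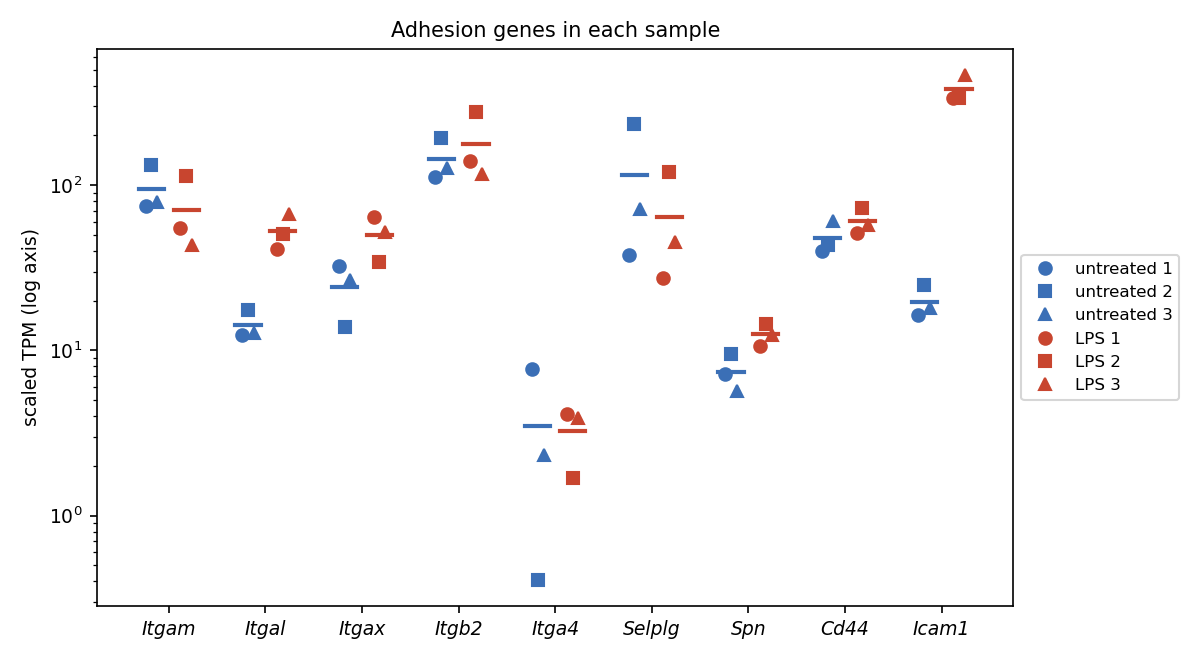
Scaled TPM (log axis) of the 9 adhesion genes in each of the 3 untreated (blue) and 3 LPS (red) samples, with marker shapes for the sample numbers and a bar for the group mean. The LPS samples of *Icam1* sit between 336 and 467 and the untreated ones between 16.3 and 24.8, while the groups of *Itgam*, *Itgb2*, *Itga4*, *Selplg* and *Cd44* overlap.

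**Figure D2:**
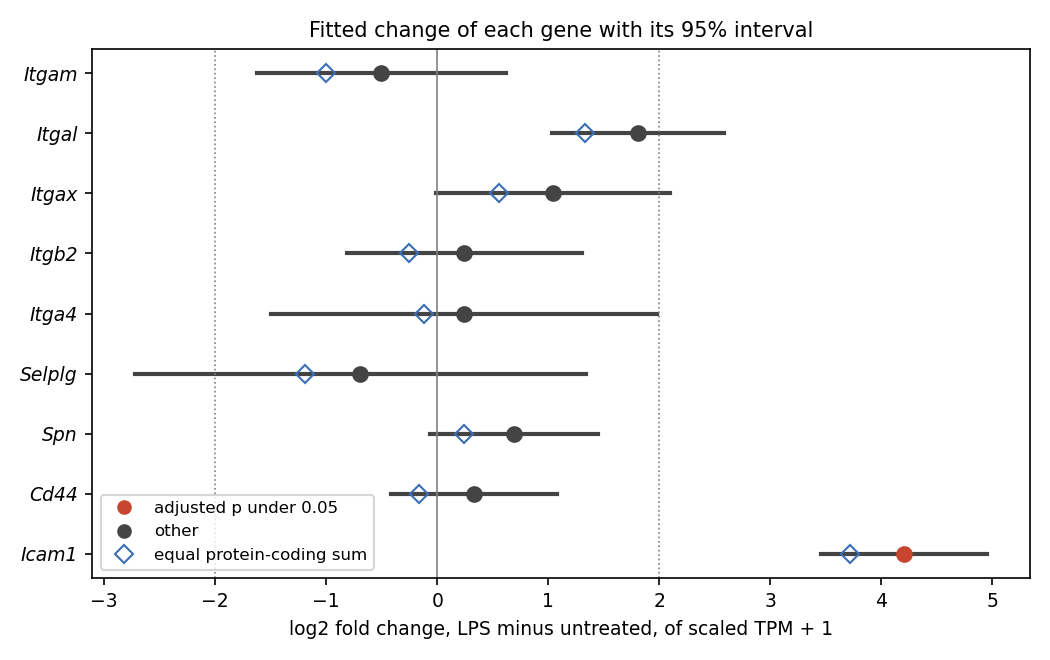
Fitted log2 fold change (circles, LPS minus untreated, limma on log2(scaled TPM + 1), 3 samples a group) with 95% intervals, and the same value after rescaling to an equal protein-coding sum (diamonds, no interval drawn). Dotted lines mark log2 limits of -2 and 2, and *Icam1* (4.20) is the only gene past them.

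*Icam1* (ENSMUSG00000037405, chr9:20926672-20940113, plus strand, GRCm39) encodes ICAM-1, the ligand of LFA-1 and Mac-1, best known on endothelium and also made by activated leukocytes. Its scaled TPM was 16.3, 24.8 and 18.1 in untreated samples 1 to 3 and 337, 336 and 467 in LPS samples 1 to 3. All 3 LPS samples lay far above the untreated ones, and the values within each group were close together. The means were 19.7 ± 4.51 and 380 ± 75.5 (SD, n = 3), a log2 fold change of 4.20 (SE 0.31, 95% interval 3.45 to 4.95, limma adjusted p = 0.0065). It stayed called higher in all 16 alternative fits, with log2 fold changes from 3.71 to 4.45. The adjusted p ranged from 0.0024 to 0.080 over these fits and left the 0.05 limit in 5 of them. Among these were the fits without LPS sample 1 (0.080), LPS sample 2 (0.054), LPS sample 3 (0.077) and sample 2 of both groups (0.070). In those fits, in the same order, 1, 6, 3 and 1 of all genes tested were higher under that limit, beside 206 in the main fit. Stretches of the *Icam1* transcripts are at least 95% identical to parts of other genes over at most 163 bases, apart from the antisense gene described with its neighbours.

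Among the CD11 chains, *Itgal* (ENSMUSG00000030830, chr7:126895432-126934320, plus strand) encodes CD11a. It had 12.4, 17.4 and 12.7 scaled TPM untreated and 40.9, 50.7 and 66.5 with LPS. The groups did not overlap, and the means differed 3.72-fold (14.2 ± 2.81 and 52.7 ± 12.9, SD, n = 3). The log2 fold change of 1.81 (95% interval 1.04 to 2.59) had an unadjusted p of 0.0012 and a limma adjusted p of 0.053, which missed the limit. Its adjusted p lay between 0.021 and 0.22 in the alternative fits and was under 0.05 in 3 of them. With an equal protein-coding sum the log2 fold change was 1.33 (limma adjusted p = 0.11).

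*Itgax* (ENSMUSG00000030789, chr7:127728668-127749829, plus strand) encodes CD11c, a chain best known from dendritic cells and macrophages. The 3 untreated samples gave 32.4, 13.8 and 26.6 scaled TPM and the 3 LPS samples 63.8, 34.1 and 51.7. The groups did not overlap, with the lowest LPS value just above the highest untreated one. Its log2 fold change was 1.05 (95% interval -0.0068 to 2.10, limma adjusted p = 0.30), which missed the limit, and 0.56 with an equal protein-coding sum. The summed macrophage markers were also apart between the groups, at 195, 168 and 200 untreated and 362, 418 and 276 with LPS. These sums were not rescaled to an equal protein-coding sum. Of 10 markers, 8 of them with a mean of at least 1, 3 were higher in all LPS samples and 1 lower. Of all genes with a mean of at least 1, 19.1% and 15.2% were. *C1qb* was called higher (1.69% of all genes were). *Cd68* made up most of the sum, no marker was at 0 in all samples, and their part in the values of *Itgax* and *Icam1* was not tested.

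*Itgam* (ENSMUSG00000030786, chr7:127661808-127717753, plus strand) encodes CD11b, the α chain of Mac-1. Values of 74.9, 131.9 and 78.9 untreated and of 55.0, 113.0 and 43.4 with LPS overlapped. In both groups sample 2 was the highest. The log2 fold change was -0.50 (95% interval -1.62 to 0.62, limma adjusted p = 0.57). *Itgam* has to be read with *Gm49368* (chr7:127661855-127727332, plus strand), an annotated protein-coding gene that overlaps it on the same strand and shares 3454 bases at 99.9% identity, so that reads could be split between them. *Gm49368* had 2.15, 37.6 and 15.0 untreated and 44.5, 42.6 and 15.9 with LPS.

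*Itgb2* (ENSMUSG00000000290, chr10:77366086-77401542, plus strand), the common β chain CD18, showed 111, 194 and 126 scaled TPM untreated and 141, 276 and 117 with LPS. The groups overlapped, and sample 2 again stood highest in each. Its log2 fold change was 0.24 (95% interval -0.81 to 1.30, limma adjusted p = 0.77), -0.26 with an equal protein-coding sum and -0.12 without LPS sample 2.

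*Itga4* (ENSMUSG00000027009, chr2:79085660-79163467, plus strand) encodes CD49d, the α chain of VLA-4, which binds VCAM-1. It was low and scattered, at 7.70, 0.405 and 2.33 untreated and 4.13, 1.68 and 3.89 with LPS. The LPS samples fell within the range of the untreated ones. The LPS mean was below the untreated mean (3.23 against 3.48) while the log2 fold change was 0.24 (95% interval -1.50 to 1.98, limma adjusted p = 0.87), and it turned to -0.41 without untreated sample 2 and to -0.10 without sample 2 of both groups. *Cerkl*, on the opposite strand, shares 3484 bases with it and had at most 1.27.

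The selectin ligand *Selplg* (ENSMUSG00000048163, chr5:113956597-113970705, minus strand) encodes PSGL-1. It measured 37.7, 236 and 71.8 untreated and 27.4, 120 and 45.0 with LPS. The spread inside each group was larger than the gap between the groups, and sample 2 was the highest in both. The log2 fold change was -0.69 (95% interval -2.72 to 1.34, limma adjusted p = 0.66), and 0.027 without untreated sample 2.

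*Spn* (ENSMUSG00000051457, chr7:126731404-126736995, minus strand) encodes CD43, a large sialoglycoprotein of the leukocyte surface. Scaled TPM was 7.19, 9.44 and 5.67 untreated and 10.6, 14.5 and 12.4 with LPS. The groups did not overlap, but the log2 fold change of 0.69 (95% interval -0.07 to 1.45) had a limma adjusted p of 0.32. With an equal protein-coding sum it was 0.24.

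*Cd44* (ENSMUSG00000005087, chr2:102641486-102732010, minus strand) encodes the hyaluronan receptor, also a ligand of E-selectin. Values of 40.1, 43.7 and 60.5 untreated stood beside 51.0, 72.8 and 57.5 with LPS. These overlapped, with a log2 fold change of 0.33 (95% interval -0.42 to 1.08, limma adjusted p = 0.57).

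In 4 of the 9 genes, *Icam1*, *Itgal*, *Itgax* and *Spn*, every LPS sample thus exceeded every untreated one, and in 0 of the 9 the reverse held. Of 9403 genes with a mean of at least 1, 19.1% were apart in the higher and 15.2% in the lower direction. With 3 samples against 3, an exact two-sided permutation test cannot give a p below 0.10.

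A ratio of 2 genes within a sample does not depend on the scaling of that sample. Because CD18 is the partner of all CD11 chains, each gene was divided by *Itgb2* of the same sample. The ratio of *Itgam* was 0.673, 0.680 and 0.626 in the untreated and 0.391, 0.410 and 0.371 in the LPS samples. These are narrow groups that did not overlap, a mean log2 difference of -0.76 with SDs of 0.065 and 0.072. When *Gm49368* was added to *Itgam*, the ratios were 0.692, 0.873 and 0.745 against 0.707, 0.565 and 0.508 and overlapped. Each value is read as a mean over the transcripts of its own gene. This unweighted sum therefore need not restore reads split between the 2 genes, and no conclusion is drawn from its overlap. The part of such a split in the *Itgam* ratio was not tested.

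The ratio of *Itgal* went the other way, from 0.112, 0.0899 and 0.101 to 0.291, 0.184 and 0.569, a mean log2 difference of 1.64. LPS sample 2 had the lowest LPS ratio, and still stood above every untreated sample. For *Itgax* the ratios of 0.291, 0.0712 and 0.211 untreated and 0.453, 0.124 and 0.442 with LPS overlapped. *Icam1* reached 2.39, 1.22 and 3.997 from 0.146, 0.128 and 0.144. Of the 8 genes divided by *Itgb2*, 2 were higher in all LPS samples and 1 lower, and 5 overlapped. Of 11072 genes above 0 in all samples, 8.87% were higher and 16.8% lower in this measure.

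**Figure D3:**
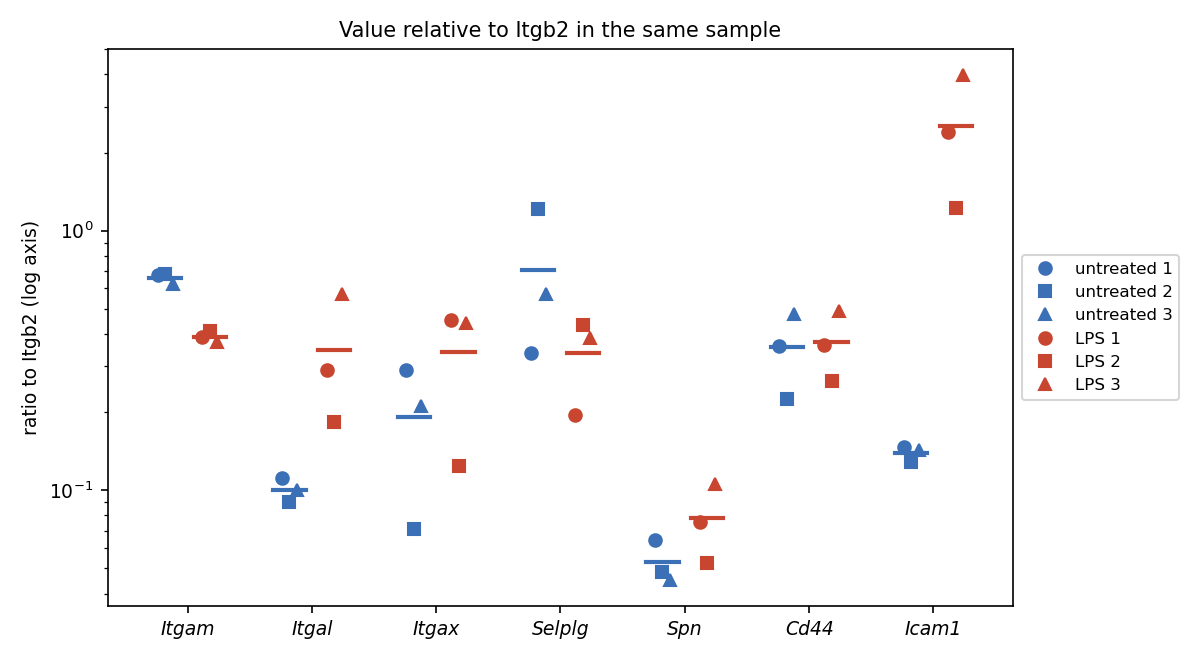
Scaled TPM divided by that of *Itgb2* in the same sample (log axis) for 7 adhesion genes in 3 untreated (blue) and 3 LPS (red) samples, with a bar for the mean. *Itgam* sits at 0.626 to 0.680 untreated and 0.371 to 0.410 with LPS, *Itgal* and *Icam1* are higher in all LPS samples, and *Itga4* is left out for its low values.

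Within the groups, the rank of the samples numbered 2 was counted. Sample 2 was the highest of its group, untreated and LPS alike, for *Itgam*, *Itgb2*, *Selplg* and *Spn* and the lowest for *Itgax* and *Itga4*. Sample 1 was the highest in both groups for *Itgax* and *Itga4* and the lowest in both for *Itgal*, *Selplg* and *Cd44*. The counts over all genes and markers below were not made for samples 1 and 3. Of 9403 genes with a mean of at least 1, 17.4% were highest and 20.5% lowest in sample 2 of both groups. The neutrophil markers had the same order, with 7 of 10 genes highest in sample 2 of both groups and summed values of 9821, 28280 and 9581 untreated and 18160, 54500 and 15990 with LPS. Between the groups, 3 of 11 neutrophil markers tested were lower in all LPS samples. Of these 11, 10 had a mean of at least 1, and of all genes with such a mean 15.2% were lower in this way. *Cxcr2* was the 1 marker called lower (1.31% of all genes were). B cell markers had the reverse order of samples, with 4 of 7 lowest in both and sums of 1088, 281 and 1037 untreated and 799, 263 and 727 with LPS. The part of these markers in the values of the adhesion genes was not tested. Without sample 2 of both groups, a fit added after the data were seen, *Icam1* had a log2 fold change of 4.45 with an adjusted p of 0.070 and was still called higher.

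**Figure D4:**
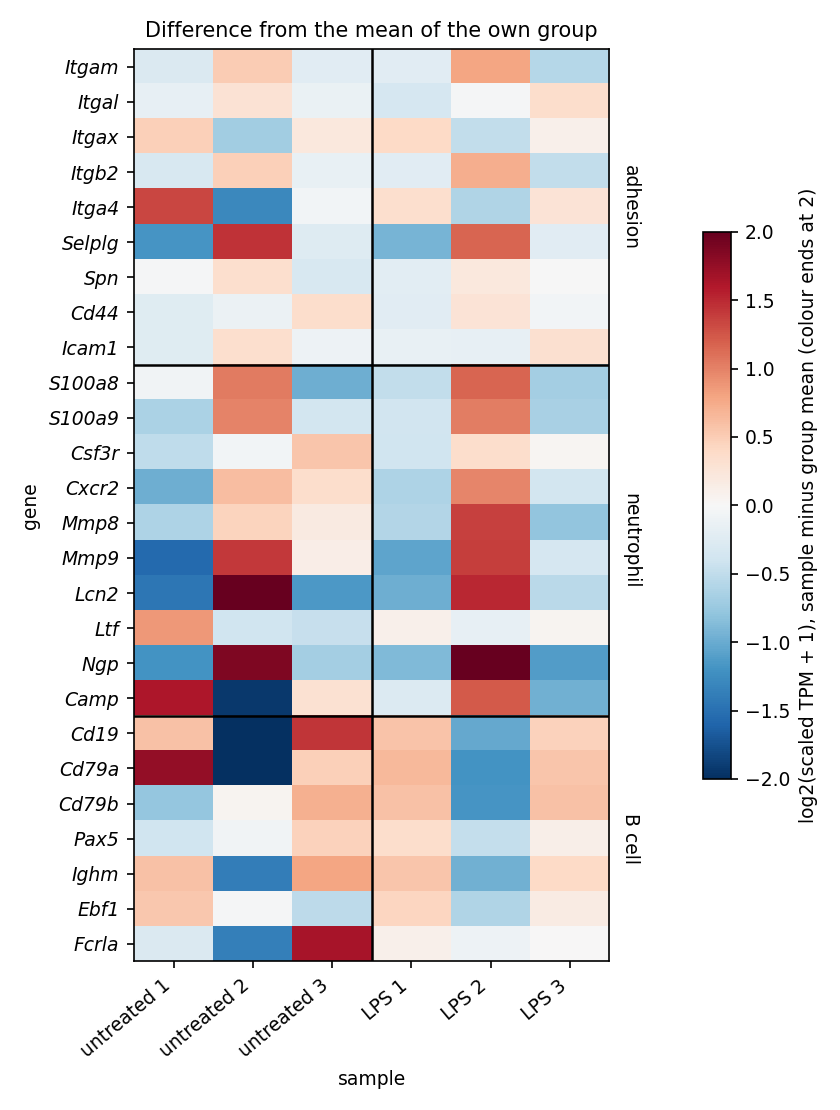
Difference of each sample from the mean of its own group in log2(scaled TPM + 1), for the 9 adhesion genes and the neutrophil and B cell markers with a mean of at least 1 (red above, blue below, colours end at 2). Column 2 of both groups is red for *Itgam*, *Itgb2*, *Selplg* and most neutrophil markers, and blue for *Itgax*, *Itga4* and most B cell markers.

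The genes whose values ran most like those of *Itgb2* over the 6 samples were *Fbxl5*, a ubiquitin ligase subunit that senses iron (Pearson r = 0.977), *S100a6* (0.959) and *S100a9*, a subunit of calprotectin (0.957). Of the adhesion genes with a mean of at least 10, which leaves out *Spn* and *Itga4*, *Itgam* (0.73) and *Selplg* (0.70) were nearest to *Itgb2*. For *Icam1* they were the pseudogene *Gm9973* (0.998), *Raver1* (0.997) and *Marcksl1* (0.997), and *Itgal* reached 0.985. These correlations were taken over 2747 genes with a mean of at least 10, and they share the same 6 libraries and the same 2 groups, so they are given as a description. *Marcksl1*, which binds actin, went from a mean of 576 to 4872 and *Gm9973* from 129 to 309.

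The antisense lncRNA *Gm47079* (chr9:20939603-20944392, minus strand) overlaps the end of *Icam1* and shares 511 bases with it. Untreated samples listed it at 0, and LPS samples held 20.8, 17.9 and 21.1 (limma adjusted p = 0.0041, range over the alternatives 0.000197 to 0.0758, past 0.05 without LPS sample 1 or 3). The library kit keeps strand, but the strand setting of the counting is not given in the sources used here, and without it reads of both genes cannot be told apart.

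Genes within 100 kb of *Icam1* were read as well, a window chosen after values were seen. Of 18 annotated genes 14 were tested, and 7 were apart upward and 1 downward. Of genes with a mean of at least 1, 19.1% and 15.2% were. The 14 had no such filter, and *Icam5* and *Gm26592* among the 7 fell short of that mean (at most 1.31 and 0.744 in any sample). The 14 are not all separate stretches, since *Gm47079* overlaps *Icam1*, *Icam4* and *Icam5*. *Gm49373* and *Zglp1* both lie 33.6 kb from *Icam1*, and *Fdx2* and *Gm38431* both 38.7 kb. *Gm47079* and *Raver1* were called higher and *Dnmt1* lower, beside 1.69% and 1.31% of all genes. *Gm49373* was listed at 0 untreated and had 3.93, 2.35 and 2.38 with LPS (limma adjusted p = 0.046, range over the alternatives 0.0095 to 0.17, past 0.05 when any 1 sample was left out). *Raver1*, an RNA binding protein gene, had 5.37, 10.0 and 6.51 scaled TPM untreated and 63.9, 57.0 and 75.8 with LPS (log2 fold change 3.03, limma adjusted p = 0.019, range over the alternatives 0.0072 to 0.15). *Dnmt1*, the maintenance DNA methyltransferase, had 18.4, 17.6 and 18.4 and then 3.10, 3.55 and 1.93 (log2 fold change -2.33, limma adjusted p = 0.027, range 0.0068 to 0.16). Without LPS sample 1, 2 or 3, and without untreated sample 3, neither *Raver1* nor *Dnmt1* was under 0.05, and *Dnmt1* was not without untreated sample 1 either. The neighbours of the same family were low, with *Icam5* at 0 to 0.110 untreated and 0.589 to 1.31 with LPS and *Icam4* at most 0.0457.

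**Figure D5:**
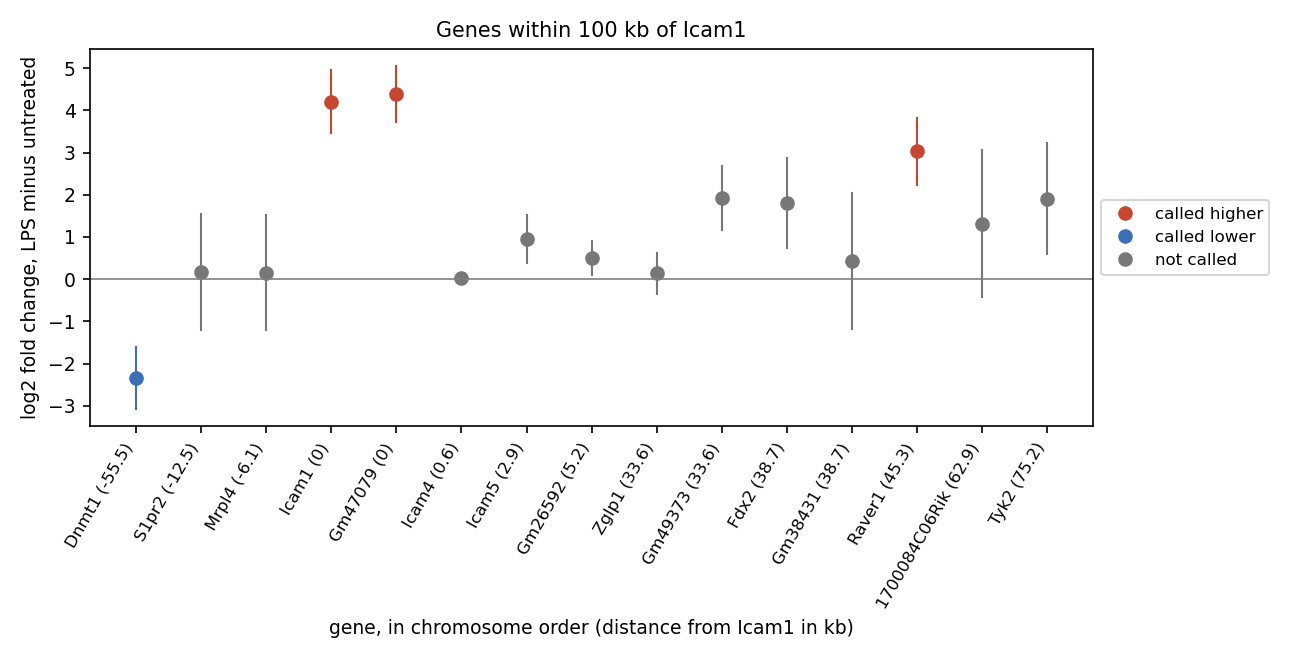
Log2 fold change with 95% interval (limma, LPS minus untreated, 3 samples a group) of *Icam1* and the 14 tested genes within 100 kb, in chromosome order with the distance from *Icam1* in kb. *Gm47079* and *Raver1* are called higher and *Dnmt1* lower, and the others are not called.

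Other genes of adhesion were read from 6 lists with 129 genes, of which 96 were in the table and tested. The lists cover further integrin chains, other receptors and ligands, integrin activation and signalling, glycosylation of selectin ligands, sheddases, and membrane to cytoskeleton linkers. Of the 96, 1 was called higher, against 1.69% of all genes, and 0 lower, against 1.31%. These counts lie near the shares over all genes. At an adjusted p under 0.05, 0 were higher and 1 was lower, beside 0.894% and 0.946% of all genes. At an unadjusted p under 0.05 limma gave 11 higher and 5 lower, beside 10.3% and 6.66%. The groups were apart upward in 21 and downward in 9 of the 96, and the median log2 fold change was 0.21. Of genes with a mean of at least 1, 19.1% and 15.2% were apart, but this is an unlike set. The 96 had no such filter, and genes apart in both directions had means below 1, such as *Sele* upward (0.111 and 0.602) and *Itga9* downward (0.644 and 0.135).

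*Cd24a*, whose product is a glycosylated surface protein that binds P-selectin, was the gene called higher, at 117, 43.3 and 114 untreated and 361, 394 and 329 with LPS (log2 fold change 2.10, limma adjusted p = 0.081). *Rassf5*, the gene of RAPL, which binds active Rap1 and the CD11a chain, fell from 19.7, 14.2 and 11.2 to 2.85, 3.06 and 3.25 (log2 fold change -1.95, limma adjusted p = 0.046, range over the alternatives 0.014 to 0.20). It was past 0.05 when any 1 of the 6 samples was left out.

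The genes that follow are from the same lists, were picked after their values were seen for their known roles and not by rank, and missed the limits. *Apbb1ip*, the gene of the Rap1 effector RIAM that brings talin to integrins, had 318, 504 and 370 untreated and 92.6, 146 and 82.0 with LPS (log2 fold change -1.90, limma adjusted p = 0.058). *Itgb1*, the β chain that pairs with the *Itga4* product, had 27.1, 27.3 and 19.4 and then 52.8, 64.6 and 59.2 (log2 fold change 1.24, limma adjusted p = 0.092). *Adam17*, a sheddase of leukocyte surface proteins, had 10.1, 17.6 and 13.5 and then 25.2, 36.4 and 28.0 (log2 fold change 1.08, limma adjusted p = 0.16). *Tln1*, the gene of talin that links integrins to actin, overlapped at 9.23, 21.9 and 9.22 against 8.74, 22.1 and 8.43 and was highest in sample 2 of both groups. *Rassf5*, *Apbb1ip* and *Tln1* do not stand for their list, integrin activation and signalling. Of its 26 tested genes, 18 had a positive and 8 a negative log2 fold change, with a median of 0.50. The groups were apart upward in 6 and downward in 3, beside 19.1% and 15.2% in the unlike set of genes with a mean of at least 1.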

How the data were processed

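RNA sequencing values of 3 untreated and 3 LPS samples were analysed, grouped by the sample titles. The authors trimmed with fastp, aligned to GRCm39 with STAR and quantified with Kallisto. The sample labels also name the build mm10, and positions given here are in GRCm39. The annotation release and the tool versions are not given in the sources used here. The deposited values are called normalized counts, but they behave as TPM averaged over transcripts and divided by 1 factor per sample. Among 1204 values of untreated sample 3 with endless decimals, 858 (71.3%) ended after multiplication by a whole number up to 40. Counts could not be recovered, and tests of counts were not run.

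Genes with no value above 0 were dropped. The other 23049 were tested on log2(scaled TPM + 1), with a pseudocount of 1, by limma 3.58.1 in R 4.3.3 (two-sided, no covariates, lmFit and then eBayes with its trend option). Fold changes on this scale understate changes of low genes. Called genes had p under 0.01 before adjustment and a log2 fold change beyond 2 in either direction, and adjusted p values are Benjamini-Hochberg over all genes. The fit was tested on simulated data. Positions come from GENCODE M39, promoters from RefSeq, and shared stretches from blastn 2.17.0 (95% identity, 150 bases). Named were the 9 genes, listed genes past the limits (up to 3 a direction) and the 3 genes most correlated with *Itgb2* and *Icam1*. The text marks any gene picked later. The 9 genes and the lists were chosen with earlier results of these data known. Alternatives were other pseudocounts, filters, scalings, limits and eBayes settings, the replicate number as a block, and leaving out samples. Of the 129 list genes 33 were not analysed here, and some other adhesion genes, left out of the lists and their counts, are not reported here.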

Additional observations from a re-analysis of the deposited data

How the results depend on the processing

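Over 16 alternative fits, 129 of 144 fold changes of single genes kept their direction and their side of an adjusted p of 0.05. Part of this was fixed in advance, because some fits leave every log2 fold change as in the main fit. These are the fits without a trend, with genes at 0 kept, with a mean of at least 1 and with the replicate block. Over the 16 fits, *Icam1* left the 0.05 limit in 5 and *Itgal* came under it in 3. The count of adhesion genes under that limit was 2 without a trend, 2 with a mean of at least 1 and 2 with a pseudocount of 0.1, since *Itgal* was added (limma adjusted p 0.021, 0.031 and 0.050, range over all fits 0.021 to 0.22). It was 0 without sample 2 of both groups and ranged from 0 to 1 when 1 sample was left out, being 0 without any LPS sample. Over all genes tested, 206 were higher under that limit in the main fit. The number was 687 without a trend, 557 with a mean of at least 1 and 300 with a pseudocount of 0.1. It was 1, 6 and 3 without LPS sample 1, 2 and 3, and 1 without sample 2 of both groups. Called higher were 2 of the adhesion genes at a log2 limit of 1, where the share of all genes was not counted. The 7 reversed values were *Itgb2* -0.26, *Itga4* -0.12 and *Cd44* -0.16 with an equal protein-coding sum, *Itgb2* -0.12 without LPS sample 2, *Itga4* -0.41 and *Selplg* 0.027 without untreated sample 2, and *Itga4* -0.10 without sample 2 of both groups. With 1 sample left out, *Itgb2* ranged from -0.12 to 0.49, *Itga4* from -0.41 to 0.91 and *Selplg* from -1.28 to 0.027. Why these values turned was not tested.

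With the replicate number as a block the count was 0, and *Icam1* had a limma adjusted p of 0.076. Its log2 fold change of 4.20 could not change, because both groups hold the same replicate numbers. Deviations of same-numbered samples correlated at 0.094, 0.20 and 0.084 over all genes, each sample best with its own number. This is a hint from the data, not the design, and the numbers were not taken to pair samples.

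Over all genes, 389 were called higher and 301 lower, and 206 and 218 had an adjusted p under 0.05. The called counts ran from 129 (pseudocount 5) to 856 (pseudocount 0.1) and from 168 to 519. Adjusted counts ran from 1 to 687 and from 10 to 611, with 1 and 15 under the block. The depth is unknown, so what it limits could not be measured.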
